A study of Mus musculus with 9 samples.

Results

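The S100 proteins and the annexins are both families of calcium-binding proteins, and they are described here together in 3 sorted populations of mouse mammary luminal cells. Members were taken by gene symbol: S100 followed by a letter, with the binding partner S100pbp and pseudogenes left out, and Anxa followed by a digit. The rule gave 30 of the 27179 genes in the count table, of which 18 are S100 genes and 12 are annexins. The rule uses no measured value, although it was set with earlier results of these data known. The study sequenced RNA in bulk from luminal epithelial cells of adult mammary glands sorted by flow cytometry, with 3 libraries per population. HR- LP cells were CD14-positive and negative for the PR-cre/YFP reporter, HR+ LP cells were CD14-positive and reporter-positive, and ML cells were CD14-negative and, by the sample labels, reporter-positive. The design text of the series gives the ML cells as reporter-negative, and the sample labels were followed. In mammary biology HR usually stands for hormone receptor, LP for luminal progenitor and ML for mature luminal, although the labels do not spell them out, and the signs after HR stand for negative and positive. All 3 populations came through a lineage-negative gate and a PR-cre/YFP reporter line. A Cre reporter of this kind marks cells that have made Cre, here under control of the progesterone receptor gene, together with their descendants, so it records past as well as present activity. Strain, exact age, number of animals and any pooling are not given in the sources used here, so p-values measure only the spread between these libraries, which may be technical.

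S100 proteins are small EF-hand proteins that usually work as dimers: calcium binding opens a surface through which they hold target proteins, and several are also released and signal through receptors such as RAGE and TLR4. Annexins bind negatively charged phospholipid at the inner face of the membrane when calcium rises, and take part in membrane organisation, vesicle traffic and repair. The families meet in defined pairs, such as S100a10 with Anxa2 and S100a11 with Anxa1.

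The libraries held between 27219103 and 108119756 counts. The gate was checked on its own genes. Cd14, the sorting antigen, averaged 1114 ± 103 CPM (read counts scaled to library depth and TMM factors; SD, n = 3) in HR- LP, 324 ± 35.2 in HR+ LP and 24.7 ± 6.04 in ML. Pgr, the progesterone receptor gene, averaged 9.42 ± 5.54, 279 ± 65.8 and 435 ± 144 CPM. The 8 luminal markers include keratins and claudins. They summed to 15417 to 17525 CPM in HR- LP, 13911 to 18833 in HR+ LP and 14563 to 18500 in ML. Against HR- LP, 2 of them were called higher and 3 lower in HR+ LP, and 3 higher and 3 lower in ML. Among these, Cd24a was higher and Epcam lower in both. HR- LP replicate 3 stood apart from its group on the second principal component, at -91.6 against 15.8 and 39.5. Without it, the members called higher in HR+ LP than in HR- LP numbered 5 and those called lower 2, and those called lower in ML than in HR- LP numbered 5; the counts with all libraries follow. Among markers of other cell types, the 8 fibroblast markers summed to 77.5 to 125.8 CPM in HR- LP, 62.2 to 268.0 in HR+ LP and 109.6 to 318.7 in ML, with 1 called higher and 6 lower in HR+ LP, and 1 higher and 3 lower in ML, against HR- LP. Dcn (decorin) made up most of the sums in HR+ LP and ML, and without it the other 7 summed to 71.0 to 115.8 CPM in HR- LP, 12.3 to 24.8 in HR+ LP and 18.8 to 36.9 in ML. The 7 endothelial markers summed to 5.97 to 9.21, 6.23 to 10.7 and 11.3 to 12.6 CPM in the same order. Of them, 1 (Egfl7) was called higher in HR+ LP and in ML against HR- LP, and the other 6 were not called. Egfl7 alone averaged 0.167 ± 0.136 CPM in HR- LP, 3.88 ± 1.06 in HR+ LP and 6.40 ± 1.81 in ML. The 8 lymphocyte markers stayed under 0.942 CPM with Cd3g, Cd4, Cd8a and Ms4a1 at 0, and the 5 adipocyte markers stayed under 5.23 CPM. Their part in the members' values was not tested.

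Of the 30 members, 22 passed the filter on low counts and were tested (12 S100 genes and 10 annexins), and 15 of these were called in at least 1 comparison at an adjusted p below 0.05 by edgeR's quasi-likelihood test with Benjamini-Hochberg adjustment over all 15910 genes tested. Between HR+ LP and HR- LP, 7 members rose and 3 fell. Of all genes tested, 17.2% were called higher and 12.8% lower, 29.9% in all. Between ML and HR- LP, 8 rose and 7 fell, beside 23.3% and 21.3% of all genes (44.6% in all). Between ML and HR+ LP no member rose and 3 fell, beside 0.0943% and 6.70% of all genes (6.79% in all). That count of 0 compares with 2 members, S100a6 and Anxa3, higher at an unadjusted p below 0.05, with 0 by DESeq2 and 0 by limma voom, and with 1, S100a6, when the replicate number was a block. The libraries of ML and HR+ LP did not overlap for 5 members higher in ML and 3 lower, beside 10.5% and 16.5% of all genes. For HR+ LP against HR- LP, 7 members lay higher without overlap and 6 lower, beside 24.4% and 19.5% of all genes, and for ML against HR- LP 8 and 9, beside 28.2% and 24.9%. The median log2 fold change of the tested members was -0.17 for HR+ LP against HR- LP, -0.03 for ML against HR+ LP and -0.21 for ML against HR- LP, beside medians of 0.0054, 0.011 and 0.029 over all genes tested. In bulk RNA a change cannot be told apart between fewer cells that express a gene and less RNA of it per cell. The 3 comparisons share libraries, so their values are given side by side for each gene and are not set against each other as independent evidence.

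**Figure D1:**
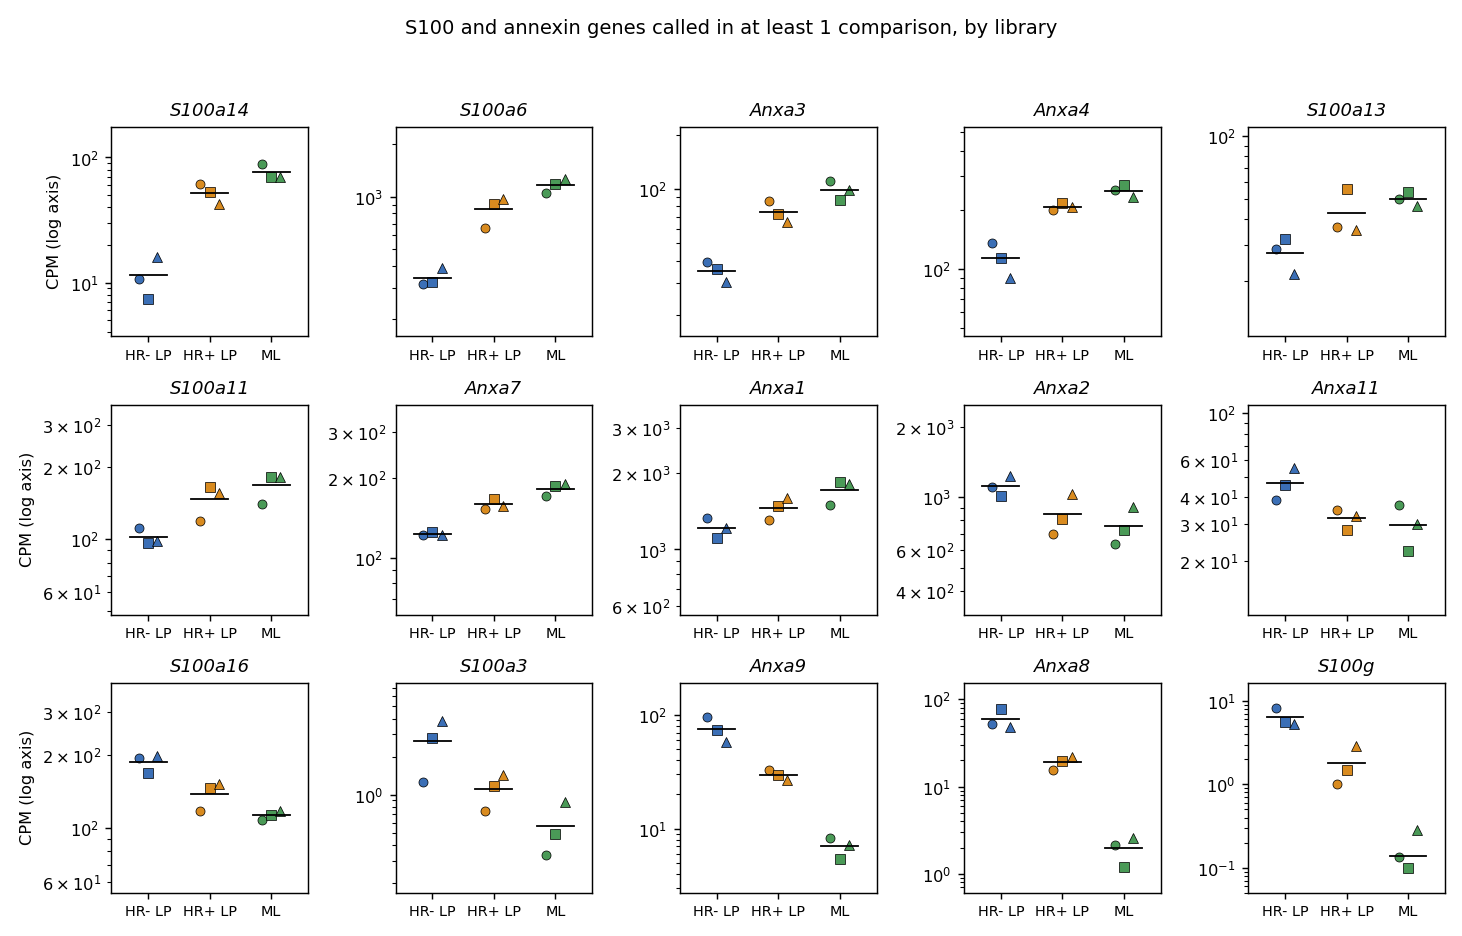
Expression of the 15 S100 and annexin genes called in at least 1 comparison, in every library, in CPM on a log axis, with 1 panel per gene; circles, squares and triangles are replicates 1, 2 and 3, the line is the group mean, and the one value of 0 (S100g in ML replicate 2) is drawn at 0.1 CPM. S100a14 rises from 7.44 to 16.1 CPM in HR- LP to 69.2 to 88.3 in ML, while Anxa8 falls from 48.5 to 77.0 CPM to 1.21 to 2.59.

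S100a6 (calcyclin, which binds the ubiquitin-ligase adaptor Cacybp, annexins and other targets; GeneID 20200, chr3:90612894-90614414 on mm10) was the S100 gene with the most reads. Its level was 316, 326 and 390 CPM in HR- LP, 657, 910.3 and 969 in HR+ LP and 1052, 1177 and 1259 in ML. The 3 groups did not overlap, with HR- LP lowest and ML highest. S100a6 was 2.46-fold higher in HR+ LP than in HR- LP (log2 fold change 1.30, SE 0.17, adjusted p = 0.000274) and 3.38-fold higher in ML than in HR- LP (1.76, SE 0.17, adjusted p = 1.15e-05). Between ML and HR+ LP the log2 fold change was 0.46 with SE 0.17 and an adjusted p of 0.204. With the replicate number as a block it was 0.47 with an adjusted p of 0.0312, although the labels state no pairing. S100a6 was the only member for which the block made a call in that comparison.

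S100a14, an S100 protein of epithelia (GeneID 66166, chr3:90526849-90528837), had the largest log2 increase of the S100 genes. HR- LP libraries held 10.7, 7.44 and 16.1 CPM of it, HR+ LP libraries 61.6, 52.8 and 42.7, and ML libraries 88.3, 70.2 and 69.2. Every library of HR+ LP was above every library of HR- LP, and every ML library was above both. The increase was 4.62-fold in HR+ LP (log2 fold change 2.21, SE 0.26, adjusted p = 0.000132) and 6.70-fold in ML (2.75, SE 0.27, adjusted p = 1.01e-05), both against HR- LP. ML against HR+ LP gave a log2 fold change of 0.54 with SE 0.25 and an adjusted p of 0.395.

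S100a11 and S100a13 moved less. S100a11, which binds the amino terminus of Anxa1 (GeneID 20195, chr3:93520496-93526288), stood at 111, 97.0 and 98.6 CPM in HR- LP, 119, 166 and 156 in HR+ LP and 140.3, 182 and 182 in ML. All reporter-positive libraries were above the HR- LP libraries, and HR+ LP and ML overlapped. Its log2 fold change was 0.52 for HR+ LP (SE 0.16, adjusted p = 0.0304) and 0.72 for ML (SE 0.16, adjusted p = 0.00393) against HR- LP. The first of these calls was lost without HR- LP replicate 2 or 3 or HR+ LP replicate 2 or 3, at adjusted p between 0.0670 and 0.129. Of the 50-base windows of the S100a11 transcript, 41.1% also occur in annotated genes Gm12854, Gm29240 or Gm7665, so its counts may be split with these copies. S100a13, which takes part in export of proteins without a signal peptide (GeneID 20196, chr3:90514233-90524581), stood at 28.7, 31.9 and 21.8 CPM, then 36.7, 55.6 and 35.4, then 49.9, 54.2 and 46.1 in HR- LP, HR+ LP and ML. HR- LP libraries were below all others, and HR+ LP overlapped ML. Its log2 fold change was 0.63 in HR+ LP (SE 0.20, adjusted p = 0.0380) and 0.86 in ML (SE 0.20, adjusted p = 0.00538) against HR- LP. The call in HR+ LP was lost without HR- LP replicate 1 or 3, HR+ LP replicate 2 or any 1 ML library, at adjusted p between 0.0515 and 0.184, in a fit of these 2 groups alone (0.0628) and with limma voom (0.0512). S100a13 overlaps S100a1 by 98 bases, and the library kit does not mark strand.

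The promoters of S100a6 and S100a11, both higher in the reporter-positive groups, are shown because they differ in a motif that was searched for. They are the 250 bases before the RefSeq start on GRCm38.p6, both on the plus strand of chromosome 3, and capitals mark the AP-1 element TGANTCA on either strand. 
S100a6 promoter, chr3:90612644-90612893: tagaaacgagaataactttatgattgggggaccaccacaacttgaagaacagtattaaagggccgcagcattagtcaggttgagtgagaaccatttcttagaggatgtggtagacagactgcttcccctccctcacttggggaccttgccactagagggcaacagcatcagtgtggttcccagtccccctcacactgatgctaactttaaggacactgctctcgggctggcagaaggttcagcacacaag
S100a11 promoter, chr3:93520246-93520495: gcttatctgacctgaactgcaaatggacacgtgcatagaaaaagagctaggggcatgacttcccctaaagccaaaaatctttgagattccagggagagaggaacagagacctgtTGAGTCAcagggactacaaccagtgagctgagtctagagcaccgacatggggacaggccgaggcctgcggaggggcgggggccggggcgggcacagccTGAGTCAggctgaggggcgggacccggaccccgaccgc
S100a11 holds the element at 136 to 130 and at 38 to 32 bases before the start, and no match lies in the S100a6 window. Of all 32851 promoter windows 6.75% hold it. So do 5 of the 31 windows of the 24 members that have a RefSeq window, those of S100a11, S100a16, S100a7l2, Anxa2 and Anxa10. TATAAA lay in 12.4% of all windows and in 7 of the 31 member windows (S100a3, S100a4, S100a7l2, S100a8, Anxa1, Anxa2 and Anxa10). The estrogen response element GGTCANNNTGACC lay in 0.0639% of all windows and in 0 member windows. Windows of S100a2, S100a10, S100a14, Anxa3, Anxa6 and Anxa13 were not analysed here.

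S100a16, S100a3 and S100g were lower in ML than in HR- LP. S100a16, a widely expressed S100 protein (GeneID 67860, chr3:90537254-90543151), stood at 195, 168 and 198 CPM in HR- LP, 117, 146 and 151 in HR+ LP and 108, 113 and 118 in ML. HR- LP was above both other groups without overlap, while HR+ LP replicate 1 lay among the ML libraries. The log2 fold change against HR- LP was -0.44 in HR+ LP (SE 0.14, adjusted p = 0.0314) and -0.73 in ML (SE 0.14, adjusted p = 0.00122). In HR+ LP the call was lost without HR- LP replicate 3, HR+ LP replicate 1 or 2 or ML replicate 3, at adjusted p between 0.0506 and 0.141, with library totals (0.0822) and in a fit of these 2 groups alone (0.0815). S100a3, best known from the hair cuticle, was rare. It stood at 1.27, 2.83 and 3.83 CPM in HR- LP, 0.744, 1.17 and 1.43 in HR+ LP and 0.335, 0.489 and 0.871 in ML, so that only ML was free of overlap with HR- LP. The difference between ML and HR- LP was -2.21 on the log2 scale (SE 0.63, adjusted p = 0.0149), a call lost without ML replicate 1 (adjusted p = 0.0517) or ML replicate 2 (0.0562). Its gene spans S100a2 and 11.5% of its 50-base windows also occur in Gm42674, so its counts are uncertain.

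S100g encodes calbindin-D9k, the small calcium carrier of calcium-transporting epithelia (GeneID 12309, chrX:162961992-162964599). It stood at 8.23, 5.66 and 5.26 CPM in HR- LP, 1.0, 1.48 and 2.87 in HR+ LP and 0.134, 0 and 0.283 in ML, where the counts were 4, 0 and 12. The groups did not overlap and the order was HR- LP, HR+ LP, ML. The log2 fold change was -5.52 for ML against HR- LP (SE 0.88, adjusted p = 0.000404) and -3.68 for ML against HR+ LP (SE 0.83, adjusted p = 0.0195). The latter was lost without HR+ LP replicate 3 (adjusted p = 0.0750), without ML replicate 1 (0.0729), in a fit of these 2 groups alone (0.0509) and with limma voom (0.123). HR+ LP against HR- LP gave -1.84 with SE 0.70 and an adjusted p of 0.0723. That difference was called without ML replicate 2 (adjusted p = 0.0201), in a fit of the 2 groups alone (0.0213), with DESeq2 (0.0113) and with limma voom (0.00352). S100g lies inside the span of Ctps2 on the opposite strand, and whether their exons overlap was not examined. Without strand in the kit, reads from any shared exon bases cannot be told apart. Ctps2, an enzyme of CTP synthesis, averaged 103 ± 4.57, 72.9 ± 5.63 and 62.9 ± 0.822 CPM, with log2 fold changes of -0.50 (HR+ LP against HR- LP, adjusted p = 0.00712), -0.21 (ML against HR+ LP, 0.516) and -0.71 (ML against HR- LP, 0.000430).

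S100a8, which pairs with S100a9 as the neutrophil protein calprotectin, was counted 22, 85 and 42 times in HR- LP, 7, 0 and 25 times in HR+ LP and 7, 0 and 0 times in ML. These counts are 0.444, 0.870 and 1.5 CPM, then 0.0667, 0 and 0.274, then 0.234, 0 and 0. HR- LP lay above both other groups without overlap, but no comparison was called, with an adjusted p of 0.205 for HR+ LP and 0.120 for ML against HR- LP. limma voom called both, at adjusted p = 0.0387 and 0.0369, and the ML difference was called without ML replicate 1 (0.0307). Its partner S100a9 had 5 counts in ML replicate 1 and 0 elsewhere, and was not tested. The 12 neutrophil and macrophage markers summed to 9.76 to 13.99 CPM in HR- LP, 5.80 to 7.84 in HR+ LP and 4.22 to 4.94 in ML. Of their 6 tested members, 1 rose (Itgam) and 1 fell (Cd68) in both HR+ LP and ML against HR- LP. Itgam had 0 counts in HR- LP and averaged 0.844 ± 0.215 CPM in HR+ LP and 1.02 ± 0.356 in ML. The macrophage marker Cd68 averaged 10.2 ± 1.40, 4.82 ± 0.700 and 2.38 ± 0.246 CPM, and Mpo was at 0 in every library. Their part in the S100a8 values was not tested.

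The other S100 genes were not called in any comparison. S100a10 (p11, the Anxa2 partner) stood at 199, 215 and 278 CPM in HR- LP, 150.2, 197 and 250.2 in HR+ LP and 173, 204 and 226 in ML, and all groups overlapped. S100a1, known as a regulator of calcium handling in muscle, averaged 73.6 ± 8.39, 61.3 ± 11.9 and 60.2 ± 4.67 CPM. ML lay below HR- LP without overlap, with a log2 fold change of -0.29 and an adjusted p of 0.176. S100a4, known from migrating cells, stayed between 0.536 and 2.65 CPM, and 47.4% of its 50-base windows also occur in Gm42674. S100a7a, a psoriasin relative, stayed between 0.301 and 1.51 CPM. S100b, the glial S100 protein, was counted 40, 0 and 0 times in HR- LP, 0, 29 and 0 times in HR+ LP and 1, 6 and 0 times in ML, so it rested on single libraries. The 6 Schwann cell markers summed to 78.5 to 151.2 CPM in HR- LP, 79.5 to 106.2 in HR+ LP and 70.5 to 97.2 in ML, with 1 called lower in each comparison and Foxd3 at 0, and their part in the S100b counts was not tested. S100a2 had at most 25 counts in a library and was not tested. S100a5, S100a7l2 and S100z were at 0 in every library.

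On chromosome 3, 13 S100 members lie between 90511034 and 91107429, and S100a10 and S100a11 lie at 93520496 to 93564645. Within the first stretch, neighbours moved apart: S100a14 rose and S100a16 fell in both comparisons with HR- LP although 8416 bases separate them. S100a13 and S100a14, 2267 bases apart, both rose. S100a6 had the most reads of these 13, and S100a5, 1109 bases from it, was at 0 in every library. The first stretch holds 8 other annotated genes, of which 1 encodes a protein, Pglyrp4, a peptidoglycan recognition protein with 0 counts in every library.

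Among annexins, Anxa3, Anxa4 and Anxa7 were higher in both reporter-positive groups. Anxa3 (GeneID 11745, chr5:96793385-96845968), an annexin of neutrophil granules and of many epithelia, stood at 39.2, 36.2 and 30.4 CPM in HR- LP, 85.4, 72.5 and 65.9 in HR+ LP and 111, 86.8 and 98.9 in ML. All 3 groups were separate, in that order. The increase was 2.11-fold in HR+ LP (log2 fold change 1.08, SE 0.16, adjusted p = 0.000481) and 2.80-fold in ML (1.49, SE 0.16, adjusted p = 1.90e-05) against HR- LP, while ML against HR+ LP gave 0.41 (SE 0.15, adjusted p = 0.224). Anxa4 (GeneID 11746, chr6:86736840-86793634), an annexin of secretory epithelia, stood at 136, 114 and 90.1 CPM, then 200.1, 217 and 206, then 254, 268 and 233. Its groups were separate in the same order. It was 1.83-fold higher in HR+ LP (log2 fold change 0.87, SE 0.16, adjusted p = 0.00176) and 2.22-fold higher in ML (1.15, SE 0.16, adjusted p = 0.000126) than in HR- LP, and ML against HR+ LP gave 0.28 (SE 0.15, adjusted p = 0.539).

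Anxa7 (synexin), which aids fusion of secretory granules, stood at 122, 125 and 122 CPM in HR- LP, 153, 167 and 157 in HR+ LP and 171, 186 and 189 in ML. The groups did not overlap, and the SD within each was under 10 CPM. Its log2 fold change was 0.37 in HR+ LP (SE 0.11, adjusted p = 0.0275) and 0.57 in ML (SE 0.11, adjusted p = 0.00173) against HR- LP, and 0.20 in ML against HR+ LP (SE 0.11, adjusted p = 0.557). In HR+ LP the call was lost without HR- LP replicate 2, any 1 HR+ LP library or ML replicate 2, at adjusted p between 0.0507 and 0.112, with RLE factors (0.0508) and in a fit of these 2 groups alone (0.0507). Anxa1 (lipocortin 1, a ligand of formyl peptide receptors; GeneID 16952, chr19:20373434-20390671) stood at 1333, 1112 and 1211 CPM in HR- LP, 1303, 1484 and 1588 in HR+ LP and 1494, 1843 and 1799 in ML. ML lay above HR- LP without overlap, and HR+ LP overlapped both. Only ML against HR- LP was called for Anxa1, with a log2 difference of 0.49 (SE 0.14, adjusted p = 0.0176), and the call was lost without HR- LP replicate 2 (adjusted p = 0.0606), ML replicate 2 (0.0713) or ML replicate 3 (0.0572).

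Anxa8 and Anxa9 fell in all 3 comparisons, and they were the only members to do so. Anxa8, an annexin of endosomes (GeneID 11752, chr14:34085979-34100571), stood at 51.8, 77.0 and 48.5 CPM in HR- LP, 15.3, 19.8 and 21.7 in HR+ LP and 2.14, 1.21 and 2.59 in ML. The groups were far apart, and no library overlapped. The log2 fold change was -1.64 for HR+ LP against HR- LP (SE 0.27, adjusted p = 0.00104), -3.26 for ML against HR+ LP (SE 0.30, adjusted p = 2.52e-05) and -4.91 for ML against HR- LP (SE 0.32, adjusted p = 5.08e-07). Anxa8 lies inside the span of A630023A22Rik on the opposite strand. That gene was at 2.32, 1.83 and 1.15 CPM, then 0.419, 0.327 and 0.372, then 0 in all ML libraries. Whether the exons of the pair overlap was not examined, and reads from any shared exon bases cannot be told apart without strand. Anxa9, an annexin whose calcium-binding sites are altered (GeneID 71790, chr3:95296093-95315180), stood at 95.5, 73.7 and 57.5 CPM, then 32.8, 29.9 and 26.7, then 8.24, 5.47 and 7.23. Its groups too were separate. The log2 fold changes in the same order of comparisons were -1.34 (SE 0.21, adjusted p = 0.000779), -2.10 (SE 0.22, adjusted p = 6.72e-05) and -3.44 (SE 0.23, adjusted p = 6.25e-07). Anxa9 overlaps Mindy1 by 74 bases and Cers2 by 410 bases. The 8 basal cell markers summed to 34.6 to 70.8 CPM in HR- LP, 24.8 to 39.8 in HR+ LP and 23.3 to 37.7 in ML. Of them, 0 were called higher and 2 lower in HR+ LP against HR- LP. In ML, 1 was called higher and 3 lower against HR- LP, and 0 higher and 1 lower against HR+ LP. The part of these markers in the falling annexins was not tested.

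The promoters of Anxa8 and S100g, which had the largest decreases in ML among the members, are shown for the forkhead motif TGTTTAC, marked in capitals on either strand; the windows are the 250 bases before the RefSeq start on GRCm38.p6, on the plus strand for Anxa8 and the minus strand for S100g. 
Anxa8 promoter, chr14:34085729-34085978: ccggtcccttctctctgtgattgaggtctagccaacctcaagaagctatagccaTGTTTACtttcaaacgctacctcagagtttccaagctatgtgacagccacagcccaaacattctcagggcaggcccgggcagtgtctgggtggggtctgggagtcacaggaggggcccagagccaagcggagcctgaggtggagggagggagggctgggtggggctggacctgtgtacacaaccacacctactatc
S100g promoter, chrX:162964600-162964849: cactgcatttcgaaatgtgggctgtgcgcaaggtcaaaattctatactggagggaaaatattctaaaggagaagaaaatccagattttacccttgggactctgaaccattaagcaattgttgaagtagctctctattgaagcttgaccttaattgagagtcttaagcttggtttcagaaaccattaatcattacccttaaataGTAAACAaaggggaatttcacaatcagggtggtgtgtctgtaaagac
The motif lies 196 to 190 bases before the start in Anxa8 and, on the opposite strand, 47 to 41 bases before it in S100g. These were the only members with a match among the 24 with a window. The motif lay in 2 of their 31 windows, beside 3.17% of all promoter windows of this length.

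Anxa2 and Anxa11 were called lower in ML than in HR- LP. Anxa2 (GeneID 12306, chr9:69453683-69491792), which with S100a10 forms a heterotetramer at the cell surface that binds plasminogen, stood at 1109, 1019 and 1238 CPM in HR- LP, 701, 808 and 1039 in HR+ LP and 635, 726 and 906 in ML. HR- LP lay above ML without overlap, and HR+ LP overlapped both groups. The log2 fold change for ML was -0.57 (SE 0.18, adjusted p = 0.0266) and for HR+ LP -0.40 (SE 0.18, adjusted p = 0.127), both against HR- LP. The ML call was lost without HR- LP replicate 3 (adjusted p = 0.0726), ML replicate 1 (0.103) or ML replicate 2 (0.0747) and with scaling by library totals (0.0737). S100a10 was not called in that comparison, where it stood at -0.20 on the log2 scale (SE 0.20, adjusted p = 0.454). Anxa11, which tethers RNA granules to lysosomes, stood at 39.0, 45.9 and 54.8 CPM in HR- LP, 34.9, 28.1 and 32.6 in HR+ LP and 36.7, 22.4 and 29.9 in ML. HR- LP was highest without overlap, and the other groups overlapped. Its log2 fold change was -0.65 in ML (SE 0.20, adjusted p = 0.0211) and -0.55 in HR+ LP (SE 0.20, adjusted p = 0.0602) against HR- LP. The ML call was lost without HR- LP replicate 3 (adjusted p = 0.0643), ML replicate 2 (0.0815) or ML replicate 3 (0.0563) and with library totals (0.0960), while the HR+ LP difference was called under 8 alternatives, among them leaving out HR- LP replicate 1, ML replicate 1 or ML replicate 2, at adjusted p between 0.0270 and 0.0498. Of its 50-base windows 25.3% also occur in Anxa11os, Gm2260 or Gm2274.

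Anxa5 and Anxa6 were not called in any comparison. Anxa5, whose protein is used to detect phosphatidylserine on dying cells, averaged 245 ± 19.2 CPM in HR- LP, 226 ± 24.2 in HR+ LP and 228 ± 30.8 in ML. Anxa6, the annexin with a doubled core, averaged 293 ± 44.4, 288 ± 56.8 and 282 ± 109 CPM. In ML it stood at 202, 406 and 238, with replicate 2 the highest of the 9 libraries. Anxa13, an annexin of intestine and kidney epithelium, had 6, 0 and 0 counts in HR- LP, 10, 8 and 7 in HR+ LP and 13, 3 and 3 in ML and was not tested. Anxa10 was at 0 in every library.

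**Figure D2:**
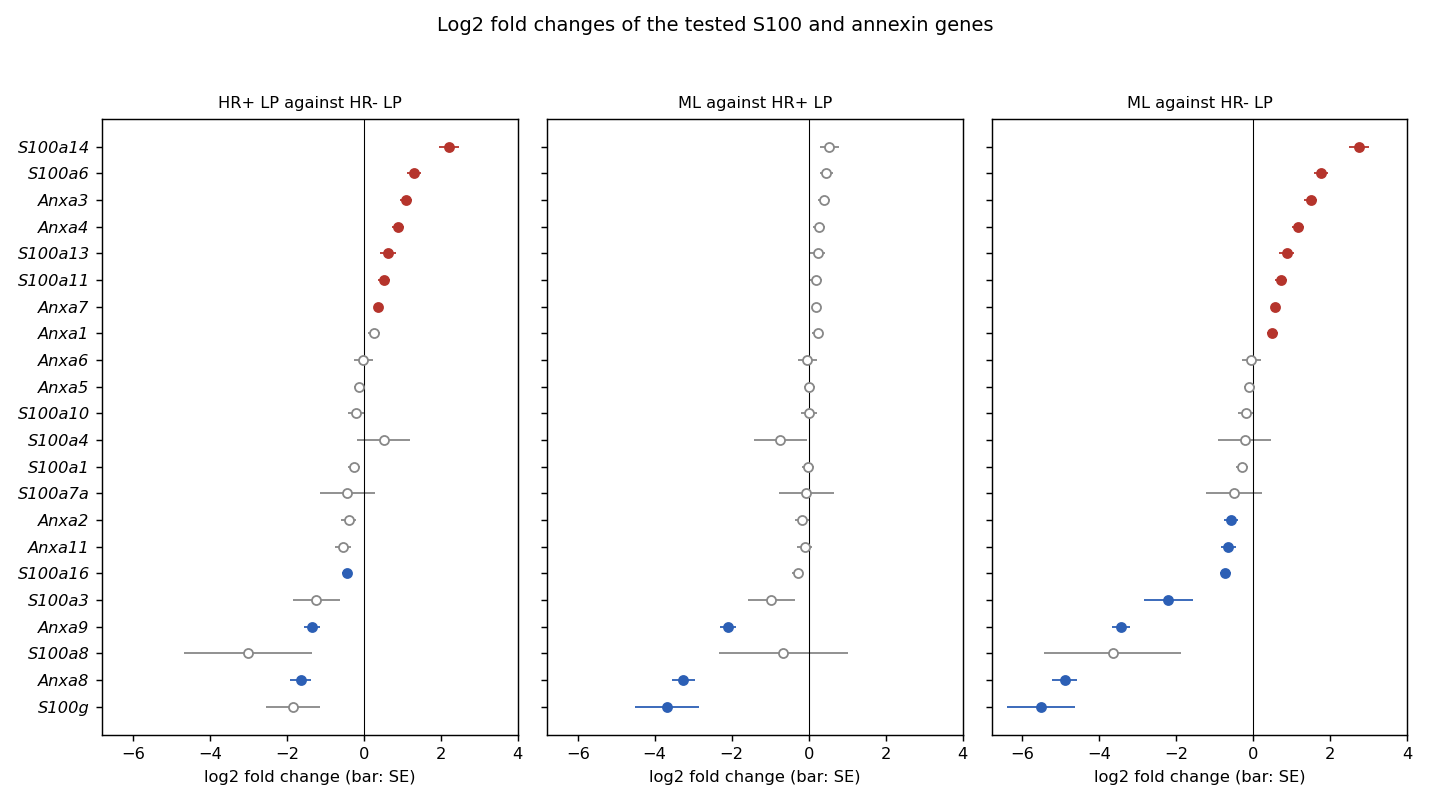
Log2 fold change of each tested member in the 3 comparisons, with bars of 1 SE; filled red points were called higher and filled blue points lower at an adjusted p below 0.05, and open grey points were not called. Anxa8, S100g and Anxa9 lie farthest below 0 for ML against HR+ LP, at -3.26, -3.68 and -2.10, and no member was called higher there.

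Summed over its members, the S100 family stood at 989 ± 89.6 CPM in HR- LP, 1491 ± 259 in HR+ LP and 1834 ± 151 in ML, with S100a6 the largest component in each group. The other 17 S100 genes summed to 645 ± 52.9, 646 ± 93.8 and 671 ± 47.7 CPM, and their ranges overlapped. Most of the net rise in the family sum therefore lay in S100a6. The sum of the other 17 is itself a net value. In ML against HR- LP, S100a11, S100a13 and S100a14 were called higher and S100a16, S100a3 and S100g lower. The annexins summed to 3332 ± 213, 3344 ± 333 and 3549 ± 374 CPM, and the ranges of the 3 groups overlapped. Per kilobase of gene length the leading member changed. In HR- LP Anxa1 was highest at 874 ± 79.4 CPM per kb, followed by Anxa2 at 817 ± 80.4, whose libraries overlapped it, and S100a6 at 478 ± 55.5. In HR+ LP S100a6 stood at 1176 ± 231 CPM per kb and Anxa1 at 1046 ± 104, again with overlap, above Anxa2 at 618 ± 125. In ML S100a6 stood at 1617 ± 145 CPM per kb, above Anxa1 at 1227 ± 136 without overlap, and Anxa2 stood at 550 ± 100. S100a10 and S100a11 came next in every group: S100a10 stood at 355 ± 63.9 CPM per kb and S100a11 at 203 ± 15.5 in HR- LP, while in ML they stood at 309 ± 40.3 and 334 ± 48.0 and overlapped.

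**Figure D3:**
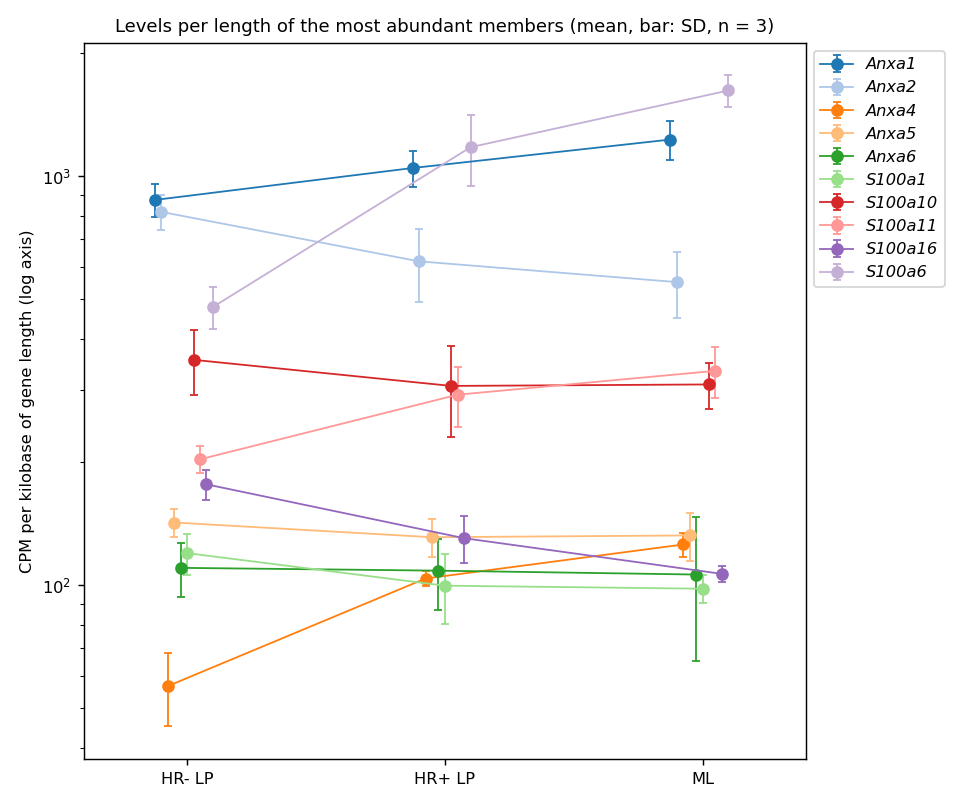
Level of the 10 most abundant members in each group, in CPM per kilobase of gene length on a log axis, with points for group means and bars of 1 SD (n = 3). S100a6 moves from 478 CPM per kb in HR- LP, below Anxa1 and Anxa2, to 1617 in ML, above both.

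For the 8 members called between ML and HR- LP with a log2 fold change beyond 1 in size, the change from HR- LP to HR+ LP was set against that from HR+ LP to ML, in a test of the difference between these 2 log2 changes that was chosen after the data were seen. Of all genes tested, without that selection, 6.01% were called. The share among genes selected in the same way was not computed. S100a14 was the one called among the 8: its first change exceeded its second by 1.67 (SE 0.42, adjusted p = 0.0404), and 80.5% of its whole log2 change lay in the first. That call was lost with RLE factors, the scaling that DESeq2 uses (adjusted p = 0.0687) and on leaving out any 1 library other than HR- LP replicates 2 and 3, at adjusted p between 0.0508 and 0.209. S100a6, Anxa3 and Anxa4 had 73.8%, 72.6% and 75.9% of their increase in the first change, but the differences of 0.84, 0.67 and 0.60 were not called (adjusted p = 0.156, 0.235 and 0.332). With the replicate block S100a6 was called (0.81, adjusted p = 0.0342). Anxa8 had 33.5% of its decrease in the first change and a difference of 1.62 (SE 0.45, adjusted p = 0.0681), which was called without HR- LP replicate 2 (0.0353), without ML replicate 3 (0.0460), with no filter on low counts (0.0455) and with DESeq2 (0.0313). The corresponding shares of Anxa9, S100g and S100a3 were 39.0%, 33.3% and 56.1%, with adjusted p = 0.379, 0.662 and 0.980.

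Partners of these proteins were read from fixed lists, which were also set with earlier results of these data known. Of 7 receptors, 5 were tested. Tlr4, the receptor of the S100a8 and S100a9 heterodimer, stood at 43.1, 73.6 and 63.6 CPM in HR- LP, 26.2, 28.4 and 28.2 in HR+ LP and 18.8, 21.0 and 24.2 in ML. The groups were separate, and Tlr4 was lower in HR+ LP (log2 fold change -1.12, SE 0.19, adjusted p = 0.00147) and ML (-1.49, SE 0.20, adjusted p = 9.94e-05) than in HR- LP. Fpr1, an Anxa1 receptor, had 0 counts in HR- LP and at most 0.848 CPM elsewhere and was called higher in ML than in HR- LP (adjusted p = 0.0217), with no fold given for so few counts. Ager, which encodes RAGE, and Bsg, a receptor of S100a9, were not called, and Fpr3 was at 0. Between ML and HR+ LP, the channel gene Trpv6 was the only receptor, binding partner or S100-fused gene that was called.

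Of 10 binding partners 9 were tested, with 3 called higher in HR+ LP, and 3 higher and 3 lower in ML, against HR- LP. Ahnak2, a relative of the S100a10 and Anxa2 scaffold Ahnak, stood at 0.182, 0.276 and 0.0358 CPM in HR- LP, 9.01, 15.0 and 18.1 in HR+ LP and 16.2, 19.5 and 24.4 in ML. Its log2 fold change was 6.17 in HR+ LP (SE 0.47, adjusted p = 7.84e-06) and 6.68 in ML (SE 0.48, adjusted p = 1.00e-06). Ahnak itself was not called, at 5308 ± 3190, 3857 ± 1599 and 3103 ± 1314 CPM. Myof, a ferlin of membrane repair, stood at 52.6, 84.6 and 85.6 CPM, then 347, 314 and 348, then 434, 472 and 423, and rose with log2 fold changes of 2.18 (SE 0.19, adjusted p = 1.61e-05) and 2.58 (SE 0.19, adjusted p = 1.23e-06). Its muscle relative Dysf, which binds Anxa1 and Anxa2, was lower in ML, at 0.477 ± 0.364 against 3.82 ± 0.530 CPM (log2 fold change -3.02, adjusted p = 0.00416). Myh9, the non-muscle myosin heavy chain bound by S100a4, averaged 685 ± 148, 1260 ± 46.6 and 1419 ± 72.1 CPM and rose by 0.88 in HR+ LP (adjusted p = 0.00247) and 1.05 in ML (adjusted p = 0.000379) on the log2 scale. Pdcd6, a penta-EF-hand protein that binds Anxa7 and Anxa11, was lower in ML than in HR- LP, at -0.38 on the log2 scale (SE 0.12, adjusted p = 0.0207).

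Trpv6, the calcium entry channel that works with calbindin-D9k in transporting epithelia and is bound by S100a10 and Anxa2, was lower in ML, as S100g was. It stood at 9.71, 10.9 and 6.37 CPM in HR- LP, 6.46, 3.14 and 3.22 in HR+ LP and 1.84, 1.36 and 0.753 in ML. ML lay below both other groups, which overlapped by 1 library. Its log2 fold change was -2.78 for ML against HR- LP (SE 0.44, adjusted p = 0.000421), -1.71 for ML against HR+ LP (SE 0.43, adjusted p = 0.0359) and -1.07 for HR+ LP against HR- LP (SE 0.41, adjusted p = 0.0736).

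Of the plasminogen system, Plau, which encodes urokinase, was higher in ML than in HR- LP with a log2 difference of 1.26 (SE 0.44, adjusted p = 0.0371) although the libraries overlapped. Of 7 S100-fused proteins 2 were tested, and Rptn (repetin, of the cornified envelope) was called higher in both reporter-positive groups at low level, at 0.242, 0 and 0 CPM, then 1.93, 2.69 and 1.38, then 5.23, 3.60 and 1.48 (adjusted p = 0.0126 and 0.00371).

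**Figure D4:**
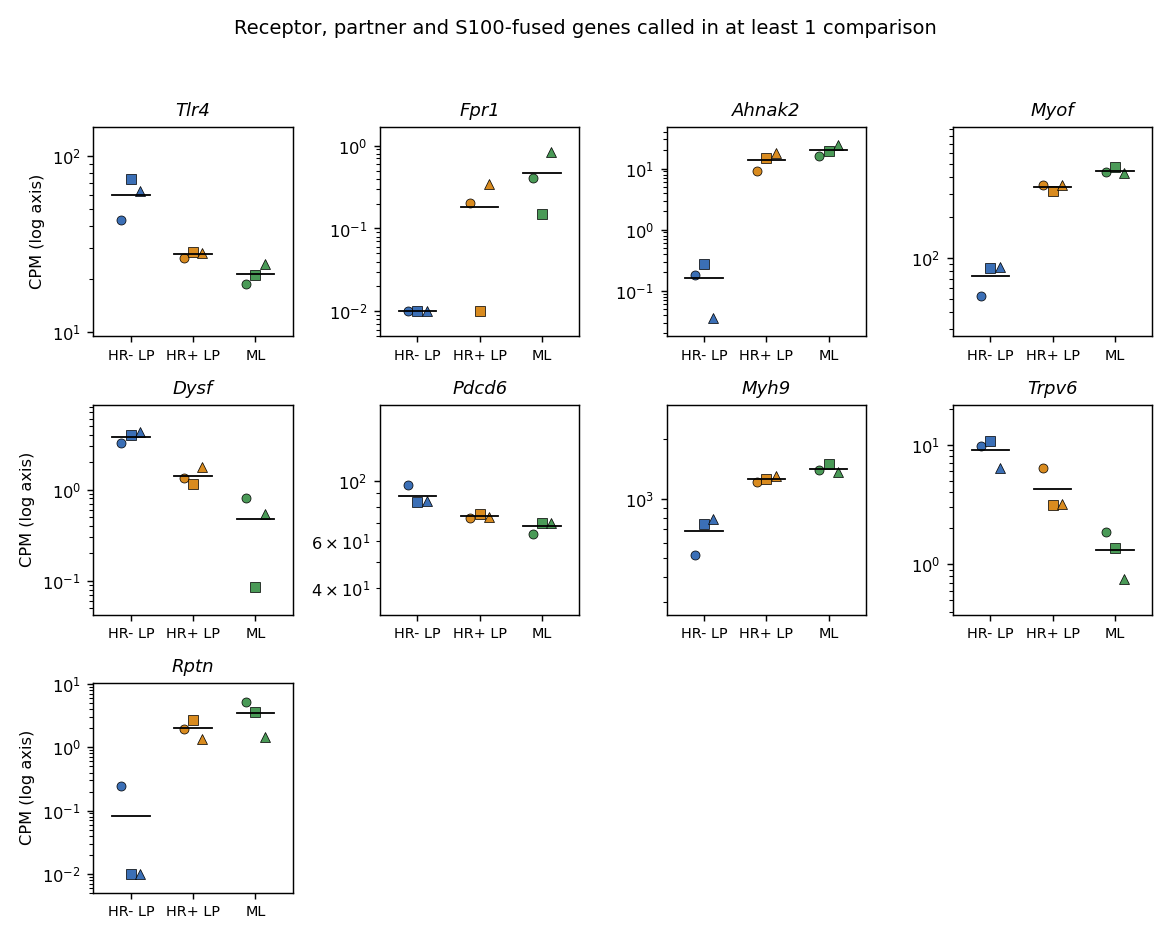
Expression of the receptor, binding partner and S100-fused genes called in at least 1 comparison, in every library, in CPM on a log axis; circles, squares and triangles are replicates 1, 2 and 3, the line is the group mean, and libraries at 0 are drawn at 0.01 CPM (Fpr1 and Rptn). Ahnak2 is at 0.0358 to 0.276 CPM in HR- LP and at 16.2 to 24.4 in ML, and Trpv6 goes from 6.37 to 10.9 CPM down to 0.753 to 1.84.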

How the data were processed

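The authors deposited read counts per gene with gene lengths, made with featureCounts on mm10 per the submitters' processing notes; the aligner, annotation and treatment of multi-mapped reads are not given in the sources used here. Per the labels' protocols, total RNA was extracted with the miRNeasy kit, treated with DNase and made into TruSeq v2 libraries, a kit that does not mark strand. Of 27179 GeneIDs 25275 matched a symbol. Low counts were filtered with filterByExpr, libraries were scaled by TMM, and all 9 were fitted together with edgeR 4.0.16 (glmQLFit, glmQLFTest), with Benjamini-Hochberg adjustment over 15910 genes and calls at 0.05. CPM are TMM-scaled, SE is the log2 fold change divided by the square root of F, and CPM per kb uses the deposited lengths. Every member was named, and partner genes were named where called in a comparison. Members, lists and tests were chosen with earlier results of these data known. No 2 libraries were duplicates: the chi-square per gene between replicates was 65.6 to 220.3. For ML against HR+ LP, deviations of same-numbered libraries from their group means correlated weakly (0.183, 0.121 and 0.189). Differently numbered libraries were not compared and the labels state no pairing. Whether the replicate number pairs libraries was therefore not settled. Alternatives were DESeq2 1.42.0, limma 3.58.1 (voom), other scalings, filters and groups, a replicate block and leaving out each library. Promoters are RefSeq windows on GRCm38.p6, searched on both strands. No protein sequence was used here. Some genes of the lists are not reported here.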

Additional observations from a re-analysis of the deposited data

How the results depend on the processing

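The calls of S100a14, Anxa3, Anxa4, Anxa8 and Anxa9 in the 3 comparisons kept their side of the threshold under all 17 alternatives. For HR+ LP against HR- LP, the 3 members called lower became 5 with the replicate block, 5 with DESeq2 and 6 with limma voom, while all genes called lower went from 2033 to 2395, 2744 and 2605. Leaving out 1 library gave 4 to 6 members higher (7 with all; 4 without HR+ LP replicate 2) and 2 to 5 lower; without HR+ LP replicate 2 all genes called higher also went from 2731 to 1982 and lower to 1211. For ML against HR+ LP the block gave 1 higher, and leaving out 1 library gave 0 higher and 2 to 3 lower. For ML against HR- LP it gave 7 to 8 higher and 4 to 7 lower (4 without ML replicate 2, where all genes called lower went from 3389 to 2798). The block added Anxa11 and Anxa2 (adjusted p = 0.0185) in HR+ LP against HR- LP. Same-numbered libraries correlated there at 0.133, 0.0389 and 0.147, and for ML against HR- LP at 0.0526, 0.0254 and 0.0849. Whether the number pairs libraries was not settled in any comparison. The block changed no other call than those of Anxa11, Anxa2 and S100a6.

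Log2 fold changes that changed sign were not called in the comparison concerned, and the cause was not tested. Scaling by library totals moved the median of all genes to 0.12 for HR+ LP and 0.19 for ML against HR- LP, with 3182 genes higher and 1535 lower in the former (2731 and 2033 with TMM). It gave 0.053 for Anxa5 in ML against HR- LP. For Anxa6 it gave 0.078 in HR+ LP against HR- LP (-0.19 to 0.11 on leaving out 1 library) and 0.090 in ML against HR- LP (-0.43 to 0.14). In ML against HR+ LP, Anxa6 was 0.011 with totals, 0.0044 with RLE factors, 0.0043 with DESeq2 and -0.38 to 0.16 without 1 library. S100a1 was 0.032, 0.011 and 0.011 under the same settings, 0.0056 with limma voom and -0.16 to 0.12 without 1 library. Leaving out 1 library also gave, in that comparison, -0.29 to 0.063 for Anxa11, -0.32 to 0.00096 for Anxa2, -0.097 to 0.10 for Anxa5, -0.16 to 0.21 for S100a10, -1.10 to 0.066 for S100a4, -0.48 to 0.32 for S100a7a and -5.94 to 1.01 for S100a8. S100a4 ran from -0.29 to 0.84 in HR+ LP and from -0.61 to 0.015 in ML against HR- LP, and the difference between the 2 changes of S100a3 from -0.72 to 0.19. Over all genes, 15 were higher in ML than in HR+ LP, against 71 with the block, 88 with DESeq2, 50 with limma voom and 216 with these groups alone. Depth limits S100a3, S100a8 and, in ML, S100g, which rest on few counts per library.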
